A study of Mus musculus with 30 samples.

Results

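The genes described here are 9 genes of central nervous system myelin, Mbp, Mobp, Mal, Mag, Mog, Opalin, Cnp, Cldn11 and Ugt8a. They were taken as a fixed list and followed across all 9 groups of a mouse glioblastoma study. All 9 were among the 24421 genes listed and among the 15824 genes that passed the filter on low values (at least 1 RPM in at least 3 libraries). Bulk tissue of cortical tumours and of tumour-free cortex was collected at postnatal day 70, and its polyadenylated RNA was sequenced with 1 library per sample. The tumours carried the epidermal growth factor receptor (EGFR) with the amino acid change A289I (5 libraries), A289V (4), R108G (3), R108K (4), R222C (3) or T263P (3), or the EGFR wild type form (3). A further 3 tumours carried mCherry, a fluorescent protein, in place of a receptor, and 2 samples were normal cortex. The 6 amino acid changes lie in the part of the receptor outside the cell. The labels give neither the promoter nor the cells that expressed the receptor, neither its species nor the other lesions of the model, and they name no mouse strain. Each receptor form came from a few mice, and the labels do not say which library came from which animal, so the p-values measure the spread between these libraries.

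Myelin is the multilayered membrane that oligodendrocytes wrap around axons. Oligodendrocytes arise from dividing precursor cells, and as they mature they switch on the genes for myelin membrane proteins and for the enzymes of myelin lipids under transcription factors that include SOX10 and MYRF. Some of these genes, such as Cnp and Ugt8a, are already on in young oligodendrocytes, whereas Mog comes on late. In bulk tissue, fewer oligodendrocytes and less RNA per oligodendrocyte cannot be told apart.

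The 9 genes belong to different layers of this membrane. Mbp encodes myelin basic protein, which holds the cytoplasmic faces of compact myelin together, Mobp encodes another small basic protein of compact myelin, and Mal encodes a proteolipid of membrane rafts. Mag encodes a lectin of the innermost layer that faces the axon, Mog an immunoglobulin-like protein of the outermost surface, and Opalin a glycoprotein of the oligodendrocyte membrane. Cnp encodes a phosphodiesterase of non-compact myelin, Cldn11 the claudin of the myelin tight junctions, and Ugt8a the enzyme that makes the glycolipid galactosylceramide. On the mm10 genome (annotation from GENCODE release M21) Mobp lies at chr9:120149707-120181484, Mal at chr2:127633226-127656695, Mag at chr7:30899176-30914873, Mog at chr17:37010743-37023398, Opalin at chr19:41061710-41077113, Cnp at chr11:100574904-100591729, Cldn11 at chr3:31149920-31164324 and Ugt8a at chr3:125865271-125938619.

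Promoters are shown because the 9 genes varied together among the tumours. RefSeq (GRCm38.p6) gave a window of 300 bases, 250 before and 50 after the gene start, for the 8 members used here, Mbp not being among them. The letters CTGGNAC, a short form of the sequence that MYRF binds, were searched on both strands and found in the windows of 4 of the 8 members, Mag, Mog, Opalin and Cnp. The same letters were found for 21.4% of the 27025 genes with such a window. The letters ACAANG, a short form of the SOX motif, were found in 5 of the 8 (Mag, Mog, Mobp, Opalin and Cnp), against 44.9% of all genes. RefSeq gave 3 windows for Mag, 1 for each start it lists, and a gene was counted if any of its windows held the letters. One window with CTGGNAC for each of the 4 genes is printed 5′ to 3′ along the gene, in lower case with CTGGNAC on either strand in capitals. They are Mag at chr7:30914814-30915113 on the minus strand, Mog at chr17:37023349-37023648 on the minus strand, Opalin at chr19:41077064-41077363 on the minus strand and Cnp at chr11:100574689-100574988 on the plus strand.
Mag: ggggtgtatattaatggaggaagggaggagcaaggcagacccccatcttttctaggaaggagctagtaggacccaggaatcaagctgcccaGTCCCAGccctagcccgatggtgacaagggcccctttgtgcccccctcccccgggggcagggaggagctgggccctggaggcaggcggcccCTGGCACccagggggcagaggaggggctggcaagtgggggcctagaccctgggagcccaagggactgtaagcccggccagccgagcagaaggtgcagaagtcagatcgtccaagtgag
Mog: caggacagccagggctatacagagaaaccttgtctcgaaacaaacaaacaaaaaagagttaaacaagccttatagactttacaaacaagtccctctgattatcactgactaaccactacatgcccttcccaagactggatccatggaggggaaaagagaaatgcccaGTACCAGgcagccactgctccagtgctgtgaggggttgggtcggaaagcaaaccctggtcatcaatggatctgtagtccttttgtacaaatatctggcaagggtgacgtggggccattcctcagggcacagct
Opalin: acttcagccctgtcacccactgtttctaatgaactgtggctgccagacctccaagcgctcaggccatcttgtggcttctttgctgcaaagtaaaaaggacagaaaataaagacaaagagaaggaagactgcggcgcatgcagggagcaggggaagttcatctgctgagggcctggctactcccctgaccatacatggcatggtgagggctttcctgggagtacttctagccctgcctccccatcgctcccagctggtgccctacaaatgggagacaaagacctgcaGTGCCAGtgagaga
Cnp: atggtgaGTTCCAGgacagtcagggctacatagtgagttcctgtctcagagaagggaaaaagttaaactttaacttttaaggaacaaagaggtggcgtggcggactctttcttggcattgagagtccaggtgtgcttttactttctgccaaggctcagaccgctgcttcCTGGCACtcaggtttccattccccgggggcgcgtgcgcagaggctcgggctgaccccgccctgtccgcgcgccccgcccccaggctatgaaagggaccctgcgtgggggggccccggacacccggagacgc
Counted from the gene start, with 1 as the first base of the gene and -1 the base before it, the first base of the match was at -159 and -68 in Mag, at -83 in Mog, at -243 and -81 in Cnp and at 37, inside the transcript, in Opalin. Counted from another listed start of Mag, the same matches lay at -100 and -9, and the window of the remaining Mag start held none. A match of letters is a description of the window and no measure of binding.

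Each library held 2784129 to 24475215 recovered reads, and 1 read was worth 0.0387 to 0.383 RPM, where RPM is the deposited normalised count divided by 1 constant for all libraries. The lowest member value was Opalin in mCherry library 2, at 11 reads. Egfr itself reached 17.5 to 2790 RPM in the 25 receptor tumours, against 22.1 to 35.4 RPM in mCherry tumours and 11.3 to 12.7 RPM in cortex. The library R108G 1, at 17.5 RPM, lay below every mCherry tumour, so the R108G counts of calls are also given without it. The gene Met stood at 3853 to 6283 RPM in 3 libraries (EGFR wild type 1 and 2 and mCherry 2) and at 437 RPM or less in the others. Library numbers in the sample names fell into 3 ranges: the A289I and R108G groups lay wholly above 37, the R222C, T263P and cortex groups wholly at 20 to 37, and mCherry was divided, with libraries 1 and 2 below 20 and library 3 above 37. A289I, R108G and mCherry were therefore never in 1 range with cortex, nor were R222C and T263P with mCherry. The same held for A289I and R108G with EGFR wild type, for A289I with A289V and for R108G with R108K. Range and group cannot be told apart in those comparisons.

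Among the tumours, the 9 genes were highest in A289I and, with the exception of Mobp, lowest on average in mCherry. The group mean was above that of mCherry for all 9 genes in A289I and for all 9 in A289V, and both forms had genes that passed the test. Against normal cortex, Mbp, Mobp, Mal, Mog, Opalin and Mag were far lower in most tumours, whereas Cnp, Cldn11 and Ugt8a reached or passed the cortex level in many. Mag, below both cortex samples in 23 of 28 tumours, still had an A289I mean above that of cortex.

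**Figure D1:**
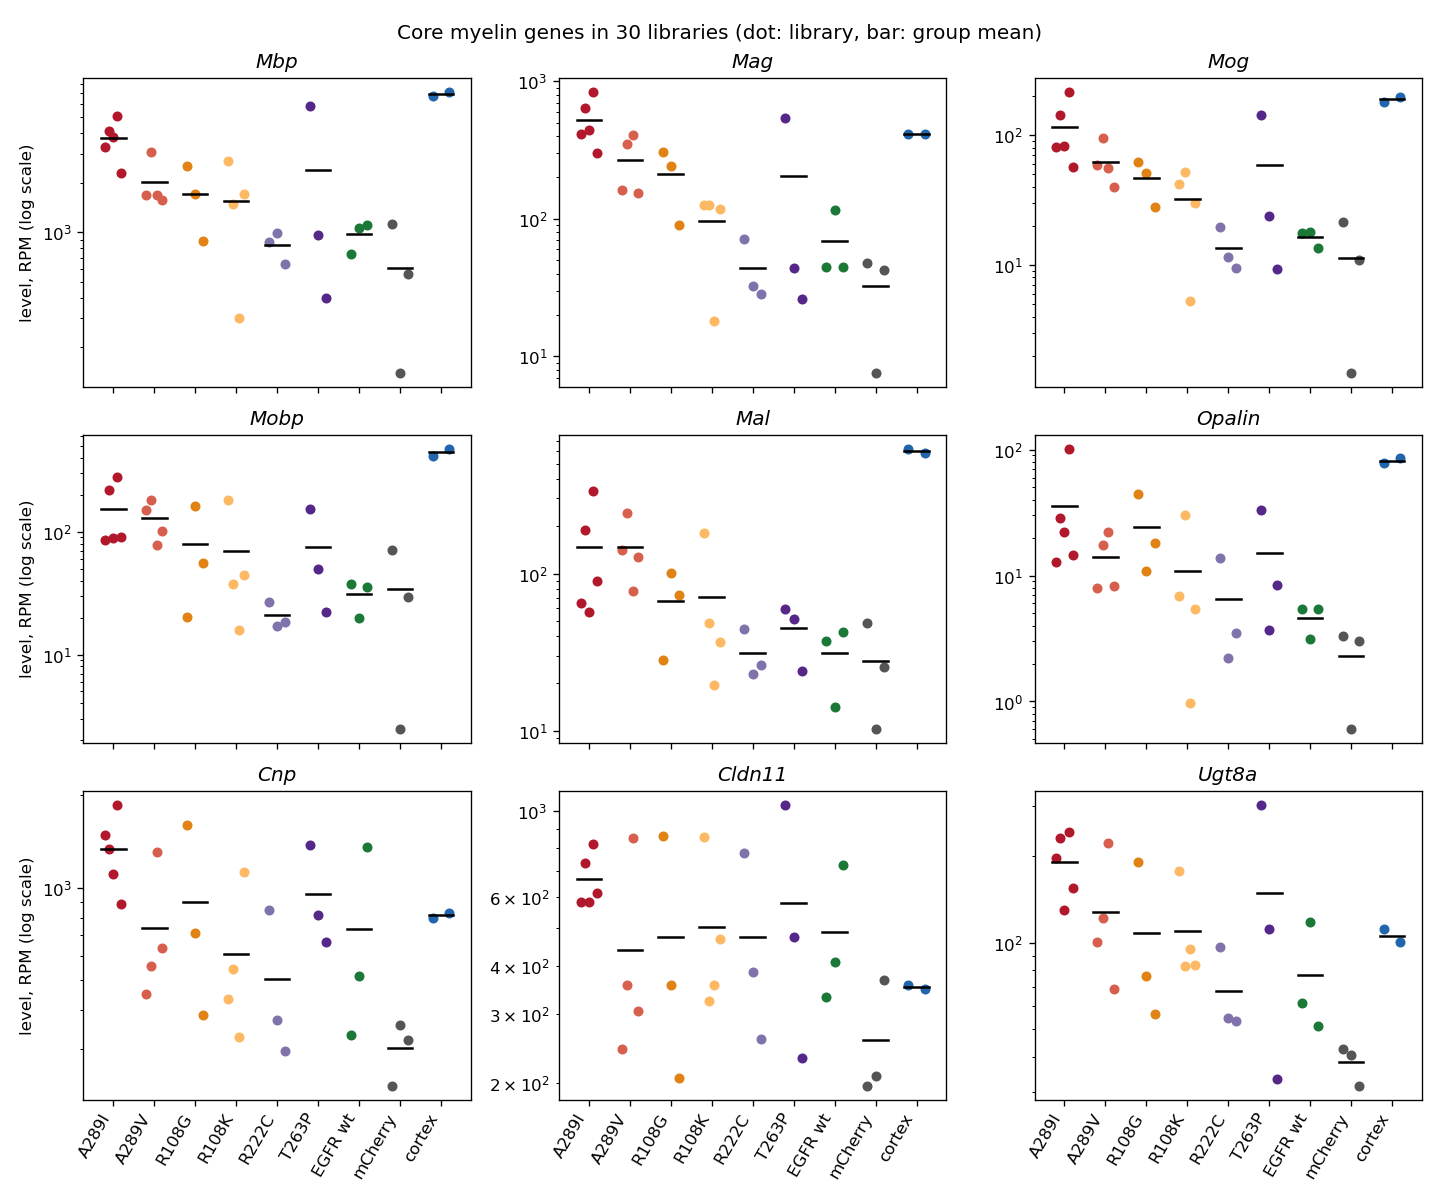
Level of each of the 9 myelin genes in RPM on a log axis, with 1 dot per library and a bar at the mean of each of the 9 groups. A289I dots are the highest group of tumours for most genes, mCherry library 2 is the lowest dot for Mbp, Mag, Mog, Mobp, Mal and Opalin, and both cortex dots lie above all 28 tumours for Mbp, Mobp and Mal.

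The compact myelin genes come first. Mbp lies at chr18:82475146-82585637, and its level is a count per gene that does not separate the longer Golli transcripts, which share its exons. Mbp stood at 3294, 4154, 3824, 5076 and 2302 RPM in the 5 A289I tumours, at 1699, 3093, 1695 and 1569 RPM in A289V tumours and at 1125, 140 and 559 RPM in mCherry tumours, and at 6802 and 7106 RPM in cortex. Every A289I and A289V tumour lay above every mCherry tumour, and every tumour lay below cortex. Mbp ranged from 641 to 997 RPM in R222C, from 743 to 1111 RPM in EGFR wild type, from 888 to 2547 RPM in R108G and from 301 to 2716 RPM in R108K. T263P held the widest spread, with 5870 RPM in library 1 against 964 and 397 RPM in libraries 2 and 3, so 1 of 3 tumours carried the group mean of 2411 RPM.

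Mobp stood at 86.3, 220, 89.6, 277 and 90.1 RPM in A289I, at 152, 182, 77.4 and 102 RPM in A289V and at 70.6, 2.47 and 29.4 RPM in mCherry tumours, and at 418 and 473 RPM in cortex. Mal stood at 65.4, 190, 56.7, 336 and 89.2 RPM in A289I, at 141, 241, 77.4 and 128 RPM in A289V and at 48.4, 10.3 and 25.3 RPM in mCherry tumours, and at 619 and 584 RPM in cortex. For both genes the A289I and A289V tumours did not overlap the mCherry tumours, and the lowest A289I tumours lay close to mCherry library 1. Mal averaged 147 ± 118 RPM in A289I (SD, n = 5) and 147 ± 68.6 RPM in A289V (SD, n = 4), the nearest pair of means of these forms among the 9 genes. In the 3 R222C tumours both genes were in the mCherry range, with Mobp at 17.0 to 27.01 RPM and Mal at 22.9 to 44.1 RPM.

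Mag, the protein of the layer facing the axon, had its highest mean in A289I, above that of cortex. It stood at 415, 638, 445, 830 and 299 RPM in A289I, at 161, 350, 405 and 154 RPM in A289V, at 306.1, 242 and 90.9 RPM in R108G and at 47.5, 7.63 and 42.6 RPM in mCherry tumours, and at 417 and 412 RPM in cortex. All A289I, A289V and R108G tumours lay above all mCherry tumours, and 3 of the 5 A289I tumours lay above cortex. T263P library 1, at 542 RPM, was the only other tumour above cortex, with T263P libraries 2 and 3 at 43.6 and 25.99 RPM. In R108K, Mag stood at 126, 126, 18.2 and 117 RPM, so library 3 lay apart from the other 3.

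The order of the Mag means ran from A289I (525 ± 209 RPM, SD, n = 5) over cortex, A289V (268 ± 129, n = 4), R108G (213 ± 110, n = 3), T263P (204 ± 293, n = 3), R108K (96.8 ± 52.6, n = 4), EGFR wild type (68.6 ± 41.6, n = 3) and R222C (44.2 ± 23.7, n = 3) to mCherry (32.6 ± 21.8 RPM, n = 3). Neighbours in this order overlapped in all 7 neighbouring pairs of tumour groups, and so did those of every other member except Ugt8a, where R222C and mCherry did not overlap.

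Mog, on the outermost surface, stood at 81.5, 144, 82.4, 213 and 56.3 RPM in A289I, at 59.2, 94.8, 55.5 and 39.5 RPM in A289V and at 21.5, 1.48 and 10.9 RPM in mCherry tumours, and at 180 and 198 RPM in cortex. Opalin stood at 12.8, 28.8, 22.1, 101 and 14.4 RPM in A289I, at 8.004, 17.5, 22.3 and 8.27 RPM in A289V and at 3.28, 0.604 and 3.02 RPM in mCherry tumours, and at 77.7 and 85.9 RPM in cortex. For each gene A289I library 4 was the single tumour above cortex, and the A289I and A289V tumours lay above all mCherry tumours. In R108G, Opalin reached 44.1, 10.8 and 18.3 RPM, which put that group ahead of A289V for Opalin (24.4 ± 17.5 RPM, n = 3, against 14.02 ± 7.06 RPM, n = 4, both SD), with overlapping libraries. Without R108G library 1 the R108G mean was 14.5 RPM. The lowest Opalin values outside mCherry were 0.981 RPM in R108K library 3, from 13 reads, and 2.23 RPM in R222C library 2.

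By log2 fold change, Cnp, Cldn11 and Ugt8a stood nearer to cortex than the other members in every tumour group except A289I. Cnp stood at 1486, 1335, 1111, 1851 and 887 RPM in A289I, at 453, 558, 1307 and 636 RPM in A289V and at 228, 359 and 321 RPM in mCherry tumours, and at 798 and 830 RPM in cortex. Cldn11 stood at 583, 736, 583, 823 and 613 RPM in A289I, at 244, 356, 849 and 305.1 RPM in A289V and at 196, 208 and 368 RPM in mCherry tumours, and at 356 and 348 RPM in cortex. Ugt8a stood at 198, 232, 130, 243 and 154 RPM in A289I, at 100, 122, 222.05 and 68.8 RPM in A289V and at 42.4, 40.4 and 31.7 RPM in mCherry tumours, and at 111 and 100 RPM in cortex. All 5 A289I tumours lay above both cortex samples and above all mCherry tumours for all 3 genes. Of all genes tested, 31.2% lay above cortex and 4.36% above mCherry in this way. Within A289V, library 3 stood above the other 3 tumours for each of the 3 genes, and also for Mag and Opalin, while its Mobp value was the lowest of the 4 and its Mbp value lay above that of library 4 alone.

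The first tested question was whether receptor tumours differed from mCherry tumours. The 7 comparisons, and the pooled one, share the same 3 mCherry libraries, so their values are given side by side and not counted as separate support. In A289I, 6 of the 9 genes rose, against 0.525% of all genes tested that were higher at an adjusted p below 0.05 (limma on log2(RPM + 1), adjusted by Benjamini and Hochberg over all genes tested). Mag rose by a log2 fold change of 4.23 ± 0.77 (SE, limma adjusted p = 0.0225), Mog by 3.58 ± 0.71 (adjusted p = 0.0260) and Opalin by 3.17 ± 0.75 (adjusted p = 0.0472). Mbp rose by 3.01 ± 0.68 (limma adjusted p = 0.0397), Ugt8a by 2.27 ± 0.49 (adjusted p = 0.0357) and Cnp by 2.12 ± 0.47 (adjusted p = 0.0390). Mobp at 2.78 ± 0.79, Mal at 2.26 ± 0.63 and Cldn11 at 1.42 ± 0.48 did not pass (limma adjusted p = 0.118, 0.112 and 0.216). All 9 genes were higher in every A289I tumour than in every mCherry tumour, as were 4.36% of all genes tested.

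The call rested on few libraries. Of the 9 genes 6 passed without A289I library 1, 3 without mCherry library 1, 2 without A289I library 3 or library 5, and 0 without A289I library 2 or 4 or mCherry library 2 or 3. edgeR's quasi-likelihood test on the recovered reads passed 0 of the 9, with 9 at an unadjusted p below 0.05, and DESeq2 passed 7. Among libraries with numbers above 37, where 5 A289I tumours met mCherry library 3 alone, the log2 fold change of Mag was 3.50, that of Mog 3.13 and that of Ugt8a 2.52, and 0 of the 9 passed. The count was also 0 without the 3 libraries of high Met, and with a term for the number ranges. The log2 fold changes stayed positive in each of the 20 alternatives run for each of the 6 genes, from 3.43 to 4.67 for Mag.

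In A289V, 3 of the 9 genes rose against mCherry, where 3.23% of all genes tested were higher. Mag rose by 3.22 ± 0.80 on the log2 scale (SE, limma adjusted p = 0.0358), Mog by 2.79 ± 0.74 (adjusted p = 0.0386) and Mal by 2.48 ± 0.66 (adjusted p = 0.0386). The other 6 had log2 fold changes of 0.65 (Cldn11) to 2.64 (Mobp) and did not pass. Of the 9 genes, 8 were higher in every A289V tumour than in every mCherry tumour, Cldn11 being the exception, beside 10.1% of all genes tested. Without A289V library 1 or 2, or without mCherry library 2 or 3, none of the 9 passed (limma), while 5 passed without mCherry library 1. None passed without the 3 libraries of high Met, with a term for the number ranges or within numbers below 20, where A289V has 1 library. Over the 19 alternatives the log2 fold change was 2.41 to 3.97 for Mag, 1.88 to 3.64 for Mog and 1.92 to 2.99 for Mal. edgeR passed 0 of the 9, with 8 at an unadjusted p below 0.05, and DESeq2 passed 5. Neuron markers moved with this comparison: the 14 neuron genes summed to 3743 to 13241 RPM in A289V tumours, against 762 to 3881 RPM in mCherry tumours and 16276 to 16429 RPM in cortex, with none of the 14 at 0 in any group. In A289I tumours the same sum was 584 to 5163 RPM, overlapping mCherry. The part of neighbouring brain tissue in the myelin values was not tested.

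The other 5 receptor forms gave no call against mCherry. All 9 fitted log2 fold changes were above 0 in each, although the mean RPM of Mobp was below that of mCherry (34.1 RPM) in R222C (20.8 RPM) and in EGFR wild type (30.9 RPM). In R108G, 0 of 9 passed (limma), beside 0.0379% of all genes higher, with 6 at an unadjusted p below 0.05 and DESeq2 passing 1. The largest R108G differences were Mag at 2.85 ± 0.86 and Opalin at 2.85 ± 0.83 on the log2 scale (SE, limma adjusted p = 0.305 and 0.287). The R108G count was also 0 without library 1, the tumour with low Egfr. Every R108G tumour lay above every mCherry tumour for 5 genes, Mag, Mog, Opalin, Cnp and Ugt8a, beside 6.85% of all genes tested.

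In R108K 0 of 9 passed in limma, edgeR and DESeq2, with 2 at an unadjusted p below 0.05 in limma, beside 0.0506% of all genes higher. In T263P 0 of 9 passed by any of the 3 tools, with 4 at an unadjusted limma p below 0.05, beside 0.00632% of all genes higher. In R222C and in EGFR wild type 0 of 9 passed by any of the 3 tools, none had an unadjusted limma p below 0.05, and 0% of all genes were called. The R222C log2 fold changes ran from 0.13 (Mobp) to 0.99 (Opalin), and those of EGFR wild type from 0.27 (Mal) to 1.25 (Mag). The genes for which every tumour of a form lay above every mCherry tumour were Ugt8a in R108K, R222C and EGFR wild type, and Opalin and Cnp in T263P, beside 3.24%, 5.49%, 3.00% and 4.09% of all genes in R108K, R222C, EGFR wild type and T263P. For Cnp and Opalin in T263P this held although libraries 2 and 3 were low for Mbp and Mag.

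All 25 receptor tumours pooled, with equal weight for the 7 forms, gave 0 of 9 in limma, beside 0.0379% of all genes higher. All 9 had an unadjusted limma p below 0.05, and DESeq2 passed 3. The log2 fold changes against mCherry ran from 0.90 ± 0.40 for Cldn11 to 2.21 ± 0.64 for Mag (SE), with 95% intervals of 0.08 to 1.73 and 0.89 to 3.53.

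**Figure D2:**
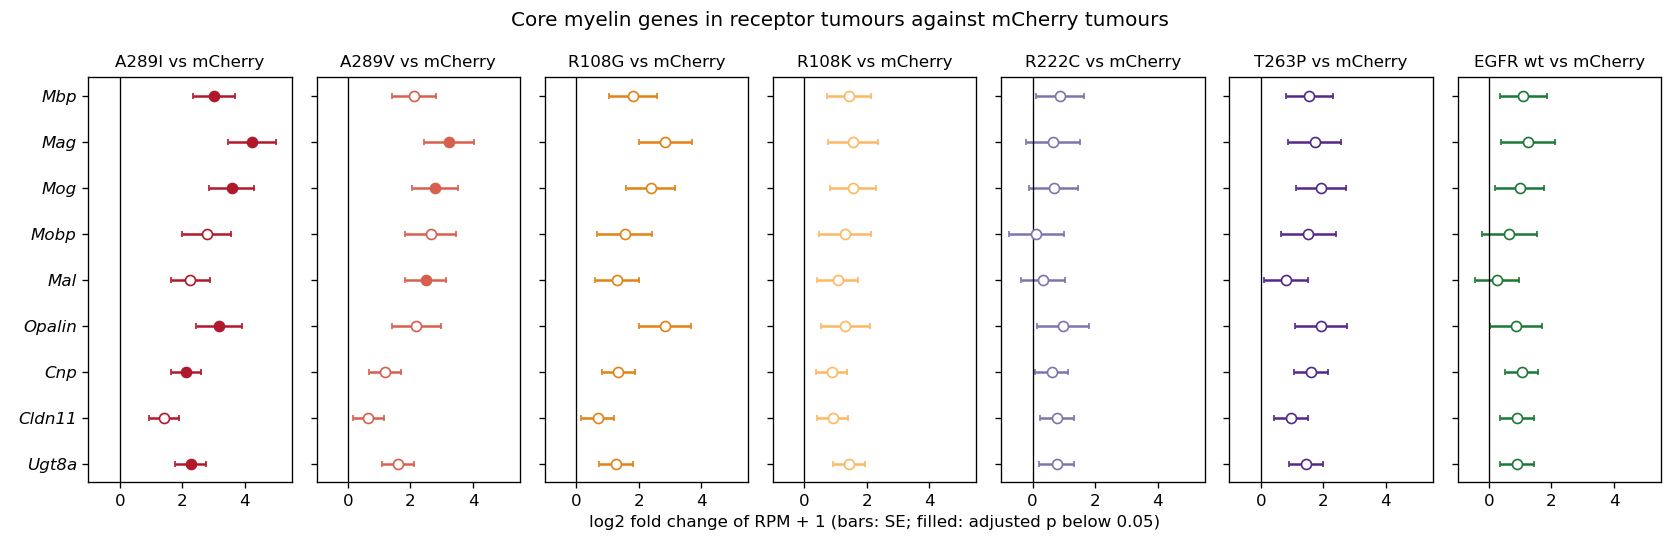
Log2 fold change of RPM + 1 of each of the 9 genes in 7 panels, 1 per receptor form, against the shared 3 mCherry tumours, with bars of 1 SE. Filled points passed at an adjusted p below 0.05, which are 6 in A289I, 3 in A289V and 0 in the other 5 panels, and all points lie right of the line at 0.

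The second question was whether an altered receptor differed from the EGFR wild type form. Mal was the single gene that passed: it rose in A289V by 2.21 ± 0.66 on the log2 scale (SE, limma adjusted p = 0.0281). It stood at 141, 241, 77.4 and 128 RPM in A289V tumours against 37.4, 14.3 and 42.6 RPM in EGFR wild type tumours. That was 1 of 9 genes beside 9.69% of all genes tested that were higher, so the count is near the share over all genes. In the same comparison 11 of 14 neuron genes and 4 of 10 astrocyte genes rose, and 0 of either fell. Of 27 further genes of myelinating oligodendrocytes 7 rose, as did 3 of 12 genes of myelin lipid synthesis, and 0 of either fell. The neuron genes summed to 3743 to 13241 RPM in A289V and to 395 to 1954 RPM in EGFR wild type tumours. The 12 genes of dividing cells summed to 461 to 946 RPM in A289V and to 1307 to 1720 RPM in EGFR wild type tumours. The part of neurons, astrocytes, other oligodendrocyte genes and dividing cells in the Mal difference was not tested. The log2 fold change of Mal was 1.63 to 2.55 over the 20 alternatives and passed in 14. It did not pass, and 0 of the 9 did, without A289V library 1, A289V library 2 or EGFR wild type library 2. It also did not pass without the 3 libraries of high Met (1.65) or within numbers 20 to 37 (1.63), which leave 1 EGFR wild type library each, or within numbers below 20 (2.55), which leave 1 A289V library. These 3 fits assume that the lone library varied like the other groups.

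In A289I the log2 fold changes against EGFR wild type were larger for 6 members, Mbp, Mag, Mog, Mobp, Mal and Opalin (1.91 to 2.98), than for Ugt8a at 1.36, Cnp at 1.07 and Cldn11 at 0.52. Of the 9, 0 passed in limma (the smallest adjusted p was 0.0818, for Mag) beside 0.221% of all genes higher, with 8 at an unadjusted p below 0.05, 0 in edgeR and 4 in DESeq2. The R108G, R108K, R222C and T263P comparisons with EGFR wild type called 0 of 9 by any of the 3 tools, beside 0% of all genes, with 1 at an unadjusted limma p below 0.05 in R108G and 0 in the other 3. The R108G count was also 0 without R108G library 1. A289I and R108G shared no range of library numbers with EGFR wild type.

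Forms that share an altered residue could be set side by side. A289I and A289V, which replace the same alanine, differed by a log2 fold change of 1.02 for Mag (95% interval -0.43 to 2.46), 0.90 for Mbp (-0.39 to 2.19), 0.93 for Cnp (0.04 to 1.83) and -0.22 for Mal (-1.41 to 0.97). None of the 9 passed in limma, edgeR or DESeq2, beside 0% of all genes, with 1, Cnp, at an unadjusted limma p below 0.05. All A289I libraries and none of the A289V libraries had numbers above 37. R108G and R108K, which replace the same arginine, differed by 1.54 for Opalin (95% interval -0.07 to 3.14), 1.29 for Mag (-0.36 to 2.94) and -0.22 for Cldn11 (-1.25 to 0.81). Again none passed by any of the 3 tools, beside 0% of all genes, and none had an unadjusted limma p below 0.05. All R108G libraries and none of the R108K libraries had numbers above 37. Without R108G library 1 the count was also 0, with log2 fold changes of 1.009 for Opalin and 0.94 for Mag. With intervals this wide, the tests do not show that the paired forms were alike.

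An F-test for any difference among the 8 tumour groups passed 3 of the 9 genes, beside 10.3% of all genes tested. They were Mag (limma adjusted p = 0.0119), Mog (adjusted p = 0.0195) and Mal (adjusted p = 0.0410). Opalin was at the threshold (limma adjusted p = 0.0502), and Cldn11 had an adjusted p of 0.470. The count was 1 without A289V library 1 or 2, 5 without mCherry library 1, R108G library 1, R108K library 3, R222C library 1 or T263P library 3, and 6 without T263P library 1. It was 0 with a term for the number ranges and within each range.

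The third question was how far the tumours stood from normal cortex. In mCherry tumours 6 of the 9 genes fell, beside 20.5% of all genes tested that were lower. Opalin fell by 4.77 on the log2 scale (SE 0.93, limma adjusted p = 0.000396), Mal by 4.62 (SE 0.79, adjusted p = 0.000104), Mobp by 4.51 (SE 0.99, adjusted p = 0.00107) and Mog by 4.44 (SE 0.89, adjusted p = 0.000488). Mag fell by 3.98 (SE 0.96, limma adjusted p = 0.00229) and Mbp by 3.96 (SE 0.85, adjusted p = 0.000910). Cnp at -1.45 ± 0.59, Ugt8a at -1.45 ± 0.61 and Cldn11 at -0.51 ± 0.60 (SE) did not pass (limma adjusted p = 0.0557, 0.0631 and 0.528). The count was 6 without each of the 5 libraries in turn, although mCherry and cortex shared no range of library numbers.

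In A289I and in A289V tumours the fewest members fell against cortex, 1 of 9 in each. In A289I Mal fell by 2.36 on the log2 scale (SE 0.72, limma adjusted p = 0.0118), beside 40.0% of all genes that passed in either direction. That share holds genes that rose as well, unlike the shares of lower genes given for the other forms. Mobp, Opalin, Mbp and Mog had log2 fold changes of -1.73, -1.60, -0.95 and -0.87, and Mag, Cnp, Ugt8a and Cldn11 of 0.25, 0.67, 0.81 and 0.91, none of which passed. Every A289I tumour was lower than both cortex samples for Mbp, Mobp and Mal, beside 32.1% of all genes, and higher for Cnp, Cldn11 and Ugt8a, beside 31.2%. Each count, 3 of 9, is near the share over all genes. In A289V Opalin fell by 2.59 on the log2 scale (limma adjusted p = 0.0485), beside 6.21% of all genes lower. That share was 19.3% to 22.6% in R108G, R108K, R222C, T263P and EGFR wild type, so few genes of any kind were called lower in A289V. The A289I count was 0 without either cortex library or with a term for the number ranges, and 2 without A289I library 4. The A289V count was 0 without A289V library 1, 3 or 4 or either cortex library, and 2 without A289V library 2.

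In R222C and in EGFR wild type the 6 genes that fell in mCherry fell too, beside 22.6% (R222C) and 21.9% (EGFR wild type) of all genes lower. The log2 fold changes in R222C ran from -4.38 (Mobp) and -4.29 (Mal) to -3.32 (Mag) and -3.08 (Mbp), and those in EGFR wild type from -4.35 (Mal) and -3.90 (Opalin) to -2.86 (Mbp) and -2.73 (Mag). In R108K those 6 fell as well, beside 22.5%, with Mal at the largest drop (it fell by 3.55) and Mag at the smallest (it fell by 2.42). The R108K count was 2 without cortex library 2. In T263P 5 fell, all of these but Mag, beside 22.2% of all genes, and the count was 2 without T263P library 2 or 3 and 1 without either cortex library. In R108G Mal, Mobp and Mbp fell, by 3.32, 2.95 and 2.14, beside 19.3% of all genes. The R108G count was 2 without library 1, the tumour with low Egfr, when Mobp did not pass, 2 without library 2 or 3, and 1 without either cortex library, and it was 0 with the term for the number ranges. These comparisons share the same 2 cortex samples. Pooled over the 7 forms, 5 genes fell (Mal, Mobp, Opalin, Mog and Mbp), beside 24.3% of all genes lower, and 3 without cortex library 1 or 1 without cortex library 2.

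Taking each tumour as a percentage of the cortex mean showed the split within the 9 genes. Over the 28 tumours the median was 8.28% for Mal, 10.2% for Opalin, 11.8% for Mobp, 18.3% for Mog, 21.9% for Mbp and 29.3% for Mag, against 80.2% for Cnp, 90.3% for Ugt8a and 113% for Cldn11. All 28 tumours lay below both cortex samples for Mbp, Mobp and Mal, beside 14.8% of all genes. Above both cortex samples were 19 tumours for Cldn11, 12 for Ugt8a, 11 for Cnp, 4 for Mag and 1 each for Mog and Opalin. In A289I the group means were 190% of cortex for Cldn11, 181% for Ugt8a, 164% for Cnp, 127% for Mag, 61.1% for Mog, 53.6% for Mbp, 43.8% for Opalin, 34.3% for Mobp and 24.5% for Mal. In mCherry they were 73.2% for Cldn11, 36.2% for Ugt8a, 37.2% for Cnp and between 2.82% (Opalin) and 8.74% (Mbp) for the other 6.

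**Figure D3:**
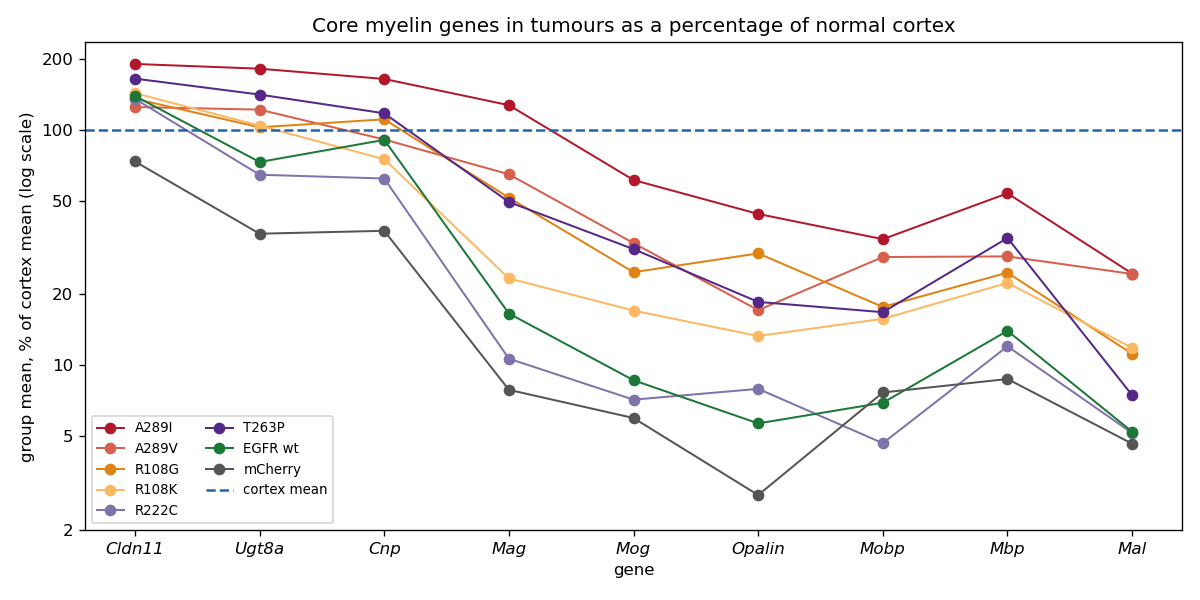
Group mean of each gene in the 8 tumour groups as a percentage of the mean of the 2 cortex samples, on a log axis, with the dashed line at 100%. Every line ends lower at Mal, at 4.65% to 24.5%, than it starts at Cldn11, at 73.2% to 190%, although each rises from Mobp to Mbp. A289I is on top for all 9 genes and mCherry at the bottom for all but Mobp.

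The makeup of the myelin transcripts differed as well. The 9 genes summed to 4506 to 9750 RPM in A289I tumours, to 1335 to 2769 RPM in R222C tumours and to 770 to 1783 RPM in mCherry tumours, against 9778 to 10137 RPM in cortex. Mbp made up 51.1% to 60.3% of the sum in A289I and 18.2% to 63.1% in mCherry tumours, against 69.6% to 70.1% in cortex. Mbp was thus a smaller share of the sum in every tumour than in either cortex sample. Cnp made up 9.24% to 47.1% of the sum over the 28 tumours, against 8.16% and 8.19% in cortex, and Cldn11 7.09% to 31.4%, against 3.43% and 3.64%. The 2 cortex samples were close to each other, whereas mCherry library 2 had Cnp at 46.7% of the sum. The ratio of Mag to Mobp was 2.90 to 4.97 in A289I tumours, against 0.870 to 0.998 in cortex, and it reached 15.2 in the library R108G 1. Shares and ratios are of RPM not divided by transcript length.

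Per kilobase of exon, the genes were also put in order. The length was that of all annotated exons of a gene joined, 8469 bases for Mbp and 1870 bases for Cldn11. It is not the length of the transcripts present, so the order between genes depends on it. In A289I the mean levels were 440 RPM per kilobase for Mbp, 367 for Cnp, 357 for Cldn11, 129 for Mag, 67.7 for Mog, 53.1 for Mal, 42.2 for Ugt8a, 22.3 for Mobp and 12.2 for Opalin. In mCherry the mean of Cldn11 came first by this length, at 138 RPM per kilobase (SD 51.3, n = 3). Cnp followed at 83.2 (SD 18.6) and Mbp at 71.8 (SD 58.4). In mCherry library 1 Mbp, at 133, lay above Cldn11, at 105. In cortex Mbp led, at 821 RPM per kilobase, followed by Cnp at 224, Mal at 217, Cldn11 at 188, Mog at 111, Mag at 102, Mobp at 65.0, Opalin at 27.8 and Ugt8a at 23.3.

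**Figure D4:**
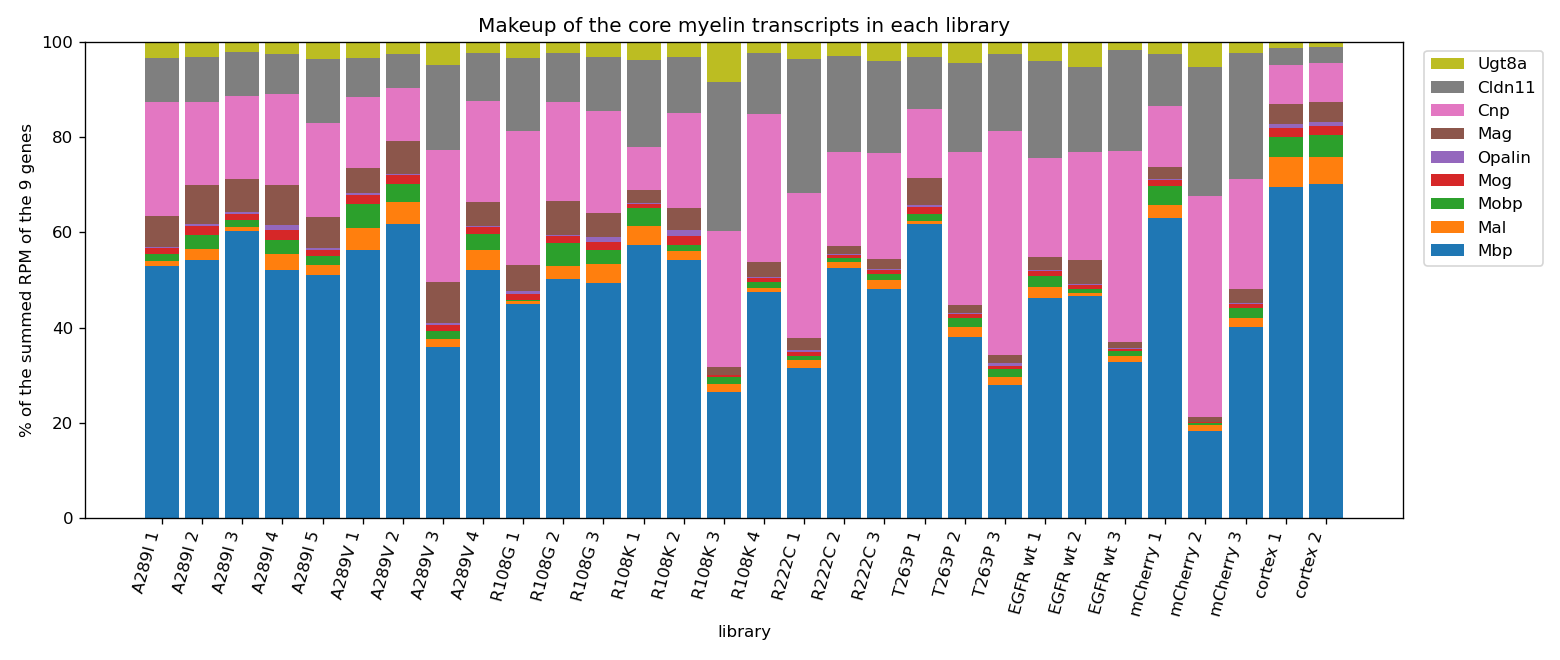
Share of each gene in the summed RPM of the 9 genes, as stacked bars from 0 to 100% for each of the 30 libraries, ordered by group. Mbp fills 69.6% and 70.1% of the cortex bars and 18.2% to 63.1% of the tumour bars, where Cnp and Cldn11 take larger parts.

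The members varied together among the 28 tumours, as a description over libraries that share their scaling. Spearman's rho was 0.97 between Mag and Mog, 0.95 between Mobp and Mal and 0.94 between Mbp and Mag. It was lowest between Mal and Cldn11, at 0.25, and between Mobp and Cldn11, at 0.29, so the claudin of the tight junctions followed the compact myelin genes least. Of 12084 other genes that averaged 5 RPM or more over the tumours, the 12 with the highest rho with the mean log2 level of the 9 members included Tubb4a, a tubulin abundant in oligodendrocytes (rho 0.91). Also among them were Cdk18, Pacs2, Kndc1, Myrf (0.89), Lgi3, Elovl7, Tmem88b, Map6d1 and Tmem125, down to 0.88.

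Other genes of the same cells were counted in the same comparisons, from lists chosen with earlier results of these data known. Of 27 further genes of myelinating oligodendrocytes, 6 rose in A289I against mCherry and none fell, beside 0.525% of all genes higher. The median log2 fold change of the 27 was 1.51, against 2.78 for the 9 members and 0.00 for all genes tested. Among the 6 were Pllp, a proteolipid of myelin (2.97, limma adjusted p = 0.0198), Myrf, the transcription factor of myelination (3.18, adjusted p = 0.0233), Cryab, a small heat shock protein (1.51, adjusted p = 0.0260), and Ppp1r14a, an inhibitor of myosin phosphatase (2.33, adjusted p = 0.0357). In A289V 3 of the 27 rose, Pllp, Gpr37 and Tspan2, with a median of 1.31, beside 3.23% of all genes higher. In mCherry against cortex 14 of the 27 fell, with a median of -1.74, beside 20.5% of all genes lower. Among the 14 were Ppp1r14a, Qdpr and Aspa. The single gene of the 27 that rose there was Gjc3, which is named because it was the only one.

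Of 12 genes of myelin lipid synthesis, none passed in A289I against mCherry in limma, with 12 of 12 means higher and a median of 0.47. In A289V 3 of the 12 rose, beside 3.23% of all genes higher. Among the 3 were Fa2h, which makes the hydroxylated fatty acids of myelin lipids (2.18, limma adjusted p = 0.0466), and the cholesterol synthesis gene Hmgcs1 (1.24, adjusted p = 0.0358). In mCherry against cortex 4 of the 12 fell, among them Fa2h, Hmgcs1 and Fdft1, beside 20.5% of all genes lower.

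Genes of oligodendrocyte precursors went the other way against cortex. In mCherry against cortex 10 of 15 rose and 1 fell, with a median log2 fold change of 2.23, beside 17.8% of all genes higher, led by Sox6 (3.36), Vcan (4.48), Cacng4 (2.56) and Pcdh15 (2.81). The 1 that fell, Neu4, a sialidase of oligodendrocyte lineage cells, rose in A289I (4.31 ± 0.44, limma adjusted p = 6.2e-06) and in A289V (3.87 ± 0.46, adjusted p = 0.000123) against mCherry. Tnr and Gpr17 also rose in A289I, and Tnr in A289V. Of 10 transcription factors of the lineage, 7 rose in mCherry against cortex, beside the same 17.8%, among them Myt1 (3.28), Zfp488 (2.98), Sox10 (2.44) and Olig2 (2.85), whereas none passed in A289I or in A289V against mCherry.

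Markers of some other cells moved with the comparisons too. All 12 genes of dividing cells rose in mCherry against cortex, where 17.8% of all genes were higher, and their sum was 603 to 1604 RPM in A289I and 990 to 1708 RPM in mCherry tumours, which overlap, against 80.8 to 82.7 RPM in cortex. Against cortex, mCherry tumours also had 13 of 14 neuron genes and 4 of 10 astrocyte genes lower, beside 20.5% of all genes. The 1 of 8 endothelial genes that was lower is no more than that share. Of 10 microglial genes 4 were higher, beside 17.8% of all genes. In A289I against mCherry 0 of 14 neuron, 0 of 10 microglial, 0 of 8 endothelial and 0 of 12 dividing genes passed in limma, while 1 of 10 astrocyte genes, Aldoc, rose. In A289V 3 of 14 neuron genes and 2 of 10 astrocyte genes rose, beside 3.23% of all genes higher. Of 12 dividing genes 1, Nusap1, fell, beside 1.68% of all genes lower. Of 8 genes of peripheral myelin, which Schwann cells make, 2 (Mpzl1 and Prx) rose in mCherry against cortex, beside the same 17.8%. Of these 8 genes 0 passed in A289I or A289V against mCherry, and 2 had no read in cortex. Their part in the differences of the 9 genes was not tested.

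The last question was whether the myelin genes followed the level of Egfr among the 25 receptor tumours. On log2 levels, Pearson's r ran from -0.06 (Opalin) to 0.27 (Mobp) and Spearman's rho from 0.04 (Opalin) to 0.36 (Mbp), and none of the 9 relations passed (permutation tests with 100000 resamples, two-sided, smallest adjusted p over the 9 relations 0.407 for rho). Without R108G library 1 and R222C library 3, the tumours farthest from the median Egfr level, r was 0.52 for Mbp, 0.51 for Mag, 0.57 for Cldn11 and 0.53 for Ugt8a (permutation adjusted p = 0.0318 for each), and these 4 of 9 passed by rho as well. The outcome of the test thus depended on these 2 libraries. After subtracting the group means none of the 9 passed, with r from -0.12 to 0.36, and none passed within numbers 20 to 37 (12 tumours) or above 37 (8 tumours). The range below 20 held 5 receptor tumours, fewer than the 6 set as the least for a correlation.

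**Figure D5:**
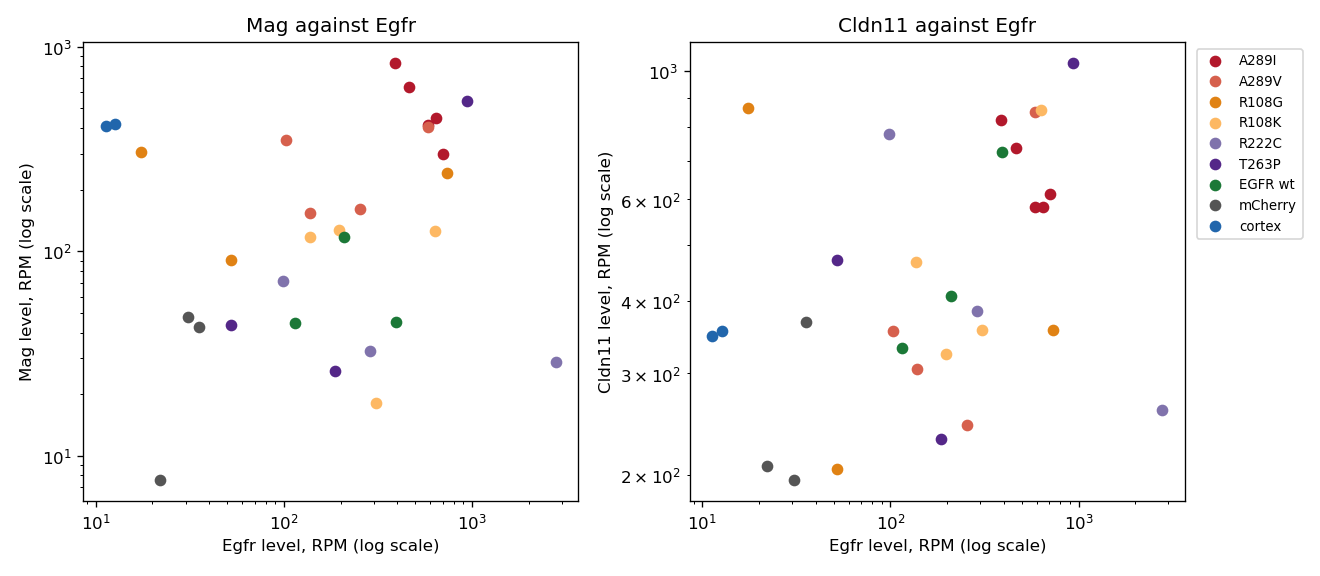
Mag and Cldn11 levels against the Egfr level of the same library, both in RPM on log axes, with 1 dot per library coloured by group. R222C library 3 is the dot at the far right (2790 RPM of Egfr), R108G library 1 lies at the left among cortex and mCherry (17.5 RPM), and the 5 A289I dots lie together at high levels of both genes.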

How the data were processed

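The deposited tables give 1 normalised signal per gene and library. The authors' signal values were, after division by a constant per library, whole reads to within 0.05 of a read (99.9959% or more of the values in every library), so they are gene read counts divided by size factors, although the tables are named RPM. All values were divided by 1 constant, 10.3, to give RPM here. The submitters' processing notes name FastQC, STAR 2.5.0a, DESeq2 1.20.0 and mm10 without their roles, and the counting step is not given in the sources used here.

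Genes reaching 1 RPM or more in 3 or more of the 30 libraries, 15824 in number, were tested with limma 3.58.1 in R 4.3.3 on log2(RPM + 1), with 9 group means in 1 fit (eBayes, trend and robust, two-sided). P-values were adjusted by Benjamini and Hochberg in each of 25 comparisons and 1 F-test (threshold 0.05). The fit was run on simulated data with the same dispersion for every gene. Those data do not copy the spread between these tumours, so they do not show how firm the calls are. Alternatives were TMM rescaling, equal totals, library weights, a filter of 5 RPM or none, a pseudocount of 0.1 RPM, only the groups compared, a term for 3 ranges of library numbers, comparison within a range, leaving out the 3 libraries with Met above 1000 RPM, each library left out in turn, and edgeR 4.0.16 and DESeq2 1.42.0 on the recovered reads. Exon lengths and positions came from GENCODE release M21 and promoters from RefSeq. Correlations used numpy 2.4.6 and pandas 2.3.3. The members are always named, and of each other list up to 4 passing genes of smallest adjusted p per comparison, except that some genes are not reported here. The members, lists and tests were chosen with earlier results of these data known. A spreadsheet had turned some gene names into dates, and 1 listed oligodendrocyte gene could not be found for that reason.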

Additional observations from a re-analysis of the deposited data

Results flagged for a closer look

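In groups of 4 or 5 libraries, a library far from the others of its group was sought for each of the 9 genes with Dixon's test at 95%. Of 27 sets tested 4 held such a library, where chance flags about 1 in 20. Mbp in A289V library 2 was 3093 RPM, above the other 3 tumours of that form at 1569 to 1699 RPM. Mag in R108K library 3 was 18.2 RPM, below the other 3 at 117 to 126 RPM. Opalin in A289I library 4 was 101 RPM, above the other 4 at 12.8 to 28.8 RPM. Ugt8a in R108K library 1 was 178 RPM, above the other 3 at 82.7 to 94.6 RPM.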

How the results depend on the processing

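Of 2540 alternative values of members with a call or a log2 fold change of at least 1, 2536 kept their sign, and of 49 calls 19 passed in every alternative run, all of them against cortex. The 4 values that turned were Cnp in A289I against EGFR wild type (-0.068) and Mag in EGFR wild type against mCherry (-0.0056) without the high Met libraries, and Mag in A289I against A289V (-0.47) and in R108G against R108K (-0.068) with the term for ranges; the cause was not tested. No paired analysis was possible because the replicate numbers follow accession order and pair no samples.

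The count of members passing in A289I against mCherry (6) was 2 with no filter, 3 with only the groups compared and 0 with the range term, within numbers above 37, without the high Met libraries and in edgeR. In A289V against mCherry (3) it was 1 with no filter, 6 with library weights, 5 in DESeq2 and 0 with only the groups compared, with the range term, within numbers below 20, without the high Met libraries and in edgeR. In A289V against EGFR wild type (1) it was 4 with library weights, with only the groups compared and in DESeq2, and 0 within numbers below 20, within 20 to 37 and without the high Met libraries. In A289I against EGFR wild type (0) it was 3 with library weights and 4 in DESeq2, and in A289I against A289V (0) 2 with library weights. DESeq2 gave 1 in R108G against mCherry (0) and 3 for the pooled receptor tumours against mCherry (0). The F-test (3) gave 8 with library weights and in DESeq2 and 0 with the range term and within each range.

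Against cortex, A289I (1) gave 6 with library weights, 5 with only the groups compared and 0 with the range term. A289V (1) gave 0 with a pseudocount of 0.1 RPM, no filter, equal totals, within 20 to 37 and in edgeR, 2 with TMM rescaling, the range term and in DESeq2, and 5 with library weights and with only the groups compared. R108G (3) gave 5 with library weights and with only the groups compared and 0 with the range term. T263P (5) gave 3 with only the groups compared and in DESeq2 and 2 in edgeR, and EGFR wild type (6) gave 3 within 20 to 37, from 1 EGFR wild type library.

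With 1 library left out, the counts ran from 0 to 6 for A289I and 0 to 5 for A289V against mCherry, 0 to 1 for A289V against EGFR wild type and 1 to 6 in the F-test. Against cortex they ran from 0 to 2 for A289I and for A289V, 1 to 2 for R108G, 2 to 6 for R108K, 1 to 6 for T263P and for the pooled tumours, 4 to 6 for EGFR wild type and 6 to 6 for R222C and mCherry. The relation to Egfr (0) passed for 4 genes without the 2 libraries farthest from the median. Depth limits single values only at the low end, where Opalin in mCherry library 2 rests on 11 reads and Mog there on 27.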
